A study of Mus musculus with 14 samples.

Results

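In hypophysectomized (hypox) male mice, 348 regions of liver chromatin were accessible to DNase I at 30 and 90 min after a pulse of growth hormone (GH) and were called in neither library of 240 min. They were chosen by their measured calls: a peak in all 4 libraries of 30 and 90 min, and none in the 6 libraries of untreated hypox males, hypox females and 240 min. They made up 0.723% of the 48148 regions obtained by merging the peaks of all 14 libraries. Below they are called transient regions. A further 154 regions, called in all 6 GH libraries and none of the 4 untreated hypox libraries, are called persistent and serve as the closest comparison. A region without a call fell short of detection at the given depth and cutoff, which does not show that it was closed.

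All mice were of the CD-1 (ICR) strain, aged 7 weeks, with no genetic modification named in the labels. Hypox animals came from the supplier without a pituitary, and a lack of weight gain and of urinary Mup protein served as signs of complete removal. Hypox males received 1 intraperitoneal injection of recombinant rat GH at 125 ng per g body weight, and livers were taken at 30, 90 or 240 min (2 libraries each). The other groups were untreated hypox males (2 libraries), hypox females (2) and females with an intact pituitary (4). Whether vehicle was given to the untreated hypox males is not clear from the labels. Each library pooled fragments from 3 livers, except hypox female pool 1, which held 2, so the pool is the replicate and variation between animals within a pool was not seen. All GH and hypox female libraries carry the code G92, untreated hypox males carry G103 and intact females G92 or G93; the labels do not say what the codes stand for.

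Growth hormone binds its receptor on hepatocytes and activates the kinase JAK2, which phosphorylates the transcription factor STAT5. Phosphorylated STAT5 dimers enter the nucleus and bind a palindrome with the arms TTC and GAA, set apart by a short spacer. In male rodents the pituitary secretes GH in separate pulses, and liver STAT5 is activated and inactivated with each of them. In females GH is secreted more continuously, and liver STAT5 stays partly active. Removing the pituitary removes this input, along with other pituitary hormones. DNase I cuts nucleosome-free DNA, so a peak of released fragments marks accessible chromatin such as an enhancer or promoter.

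The whole STAT5 palindrome lay within 100 bp of the summit in 56.6% of the transient regions, and within 50 bp in 39.4%. Below, 7 stretches of 200 bases, each centred on a summit, are printed from the mm9 reference genome, plus strand, with every match to TTCNNNGAA in capitals. The first 6 belong to the transient regions of highest peak fold that hold the palindrome. The region at Bcl6 was added after its values were seen, because this gene stands in the lists described further on and its summit holds 3 matches. Genes named are the gene that holds the region or, where none does, the gene with the nearest protein-coding start.
Slc22a23, chr13:34320012-34320211: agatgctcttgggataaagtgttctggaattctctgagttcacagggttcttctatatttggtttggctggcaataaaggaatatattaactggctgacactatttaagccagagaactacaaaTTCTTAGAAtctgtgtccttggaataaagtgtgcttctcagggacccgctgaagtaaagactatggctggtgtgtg
Ces3b, chr8:107592063-107592262: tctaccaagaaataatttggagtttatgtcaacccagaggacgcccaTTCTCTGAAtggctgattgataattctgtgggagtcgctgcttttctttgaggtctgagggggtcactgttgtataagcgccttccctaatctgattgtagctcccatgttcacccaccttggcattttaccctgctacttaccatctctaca
Deptor, chr15:55029593-55029792: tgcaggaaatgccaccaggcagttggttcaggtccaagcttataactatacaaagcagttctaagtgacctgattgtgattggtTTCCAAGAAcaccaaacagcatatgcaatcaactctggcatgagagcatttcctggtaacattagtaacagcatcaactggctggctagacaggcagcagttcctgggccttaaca
Trit1, chr4:122704111-122704310: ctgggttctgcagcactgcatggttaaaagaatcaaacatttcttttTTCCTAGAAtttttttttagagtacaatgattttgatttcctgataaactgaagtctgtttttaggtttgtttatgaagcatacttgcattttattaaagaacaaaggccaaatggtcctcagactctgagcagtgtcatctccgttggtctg
Gclc, chr9:77572210-77572409: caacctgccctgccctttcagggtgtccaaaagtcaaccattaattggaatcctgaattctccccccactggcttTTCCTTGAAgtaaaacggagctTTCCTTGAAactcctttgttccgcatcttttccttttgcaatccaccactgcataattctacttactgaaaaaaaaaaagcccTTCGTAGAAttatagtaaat
Plaur, chr7:25260010-25260209: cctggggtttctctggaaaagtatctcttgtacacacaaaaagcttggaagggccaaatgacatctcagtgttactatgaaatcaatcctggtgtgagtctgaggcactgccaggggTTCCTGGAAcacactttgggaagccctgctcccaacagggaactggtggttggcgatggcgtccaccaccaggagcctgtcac
Bcl6, chr16:23981358-23981557: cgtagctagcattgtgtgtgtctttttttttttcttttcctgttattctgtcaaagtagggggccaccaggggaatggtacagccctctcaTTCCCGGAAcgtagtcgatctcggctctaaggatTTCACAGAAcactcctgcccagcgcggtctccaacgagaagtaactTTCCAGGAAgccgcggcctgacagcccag

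Single matches were the usual form, as in the stretches at Slc22a23, Ces3b, Deptor, Trit1 and Plaur. The stretches at Gclc and Bcl6 held 3 matches each. The search fixed only the 6 outer bases, so the spacer letters vary, as between TTCCTGGAA at Plaur and TTCTTAGAA at Slc22a23.

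Among all 348 transient regions, 197 held TTCNNNGAA on either strand within 100 bp of the summit, a share of 56.6% (exact 95% binomial interval 51.2 to 61.9). Of these, 168 held 1 match and 29 held 2 or more, and the other 151 regions held none. The share was 66.2% (58.2 to 73.6) in persistent regions, 8.22% (7.6 to 8.87) in the 7423 regions called in all 14 libraries and 9.16% (8.9 to 9.42) in all merged regions. The intervals of the transient and persistent regions overlap, and both lie above those of the other classes. Such intervals cover counting error over regions only, since regions are not replicates of animals, and no p was computed for them. Sequence took no part in choosing the regions. Below, a transient region is said to hold a palindrome, or none, by this window around the summit unless another is named.

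Base composition differed between the classes and was taken into account. Transient regions had a median GC content of 43% around the summit, persistent regions 43.5%, and all merged regions 49%. When the other 47800 regions were weighted to the GC content of the transient ones, their share with TTCNNNGAA was 11.2%. Away from promoters the share was 56.7% of 314 transient regions and 10.4% of 35379 merged regions. The stricter form TTCCNNGAA was held by 38.8% (33.6 to 44.1) of transient regions and 5.75% (5.54 to 5.96) of all regions.

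The spacing of the arms was examined with spacers of 2 and 4 bases. TTCNNGAA was held by 10.1% (7.11 to 13.7) of transient regions and 5.61% (5.41 to 5.82) of all regions. A spacer of 4 bases between TTC and GAA, known to be preferred by STAT6, was held by 14.4% (10.9 to 18.5) and 5.2% (5 to 5.4). Both spacings were thus also more frequent in transient regions, by less than the spacing of 3. At the GC content of the transient regions the other regions held them at 6.7% and 6.55%. Among the 151 transient regions without TTCNNNGAA, 18 (11.9%) held the shorter spacing and 26 (17.2%) the longer.

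The palindromes lay close to the summits. Distances here are to the centre of the match. Of the 197 transient regions with a match, 40 had one centred within 10 bp of the summit, 88 within 25 bp (44.7%) and 148 within 50 bp (75.1%). An even spread over the window would give 26.6% within 25 bp and 52.6% within 50 bp. Taking in the whole region, with a median width of 527.5 bp, raised the share with TTCNNNGAA to 75% of transient, 82.5% of persistent and 18.7% of all regions. The summit is that of the peak with the highest −log10 p over the 14 libraries.

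**Figure D1:**
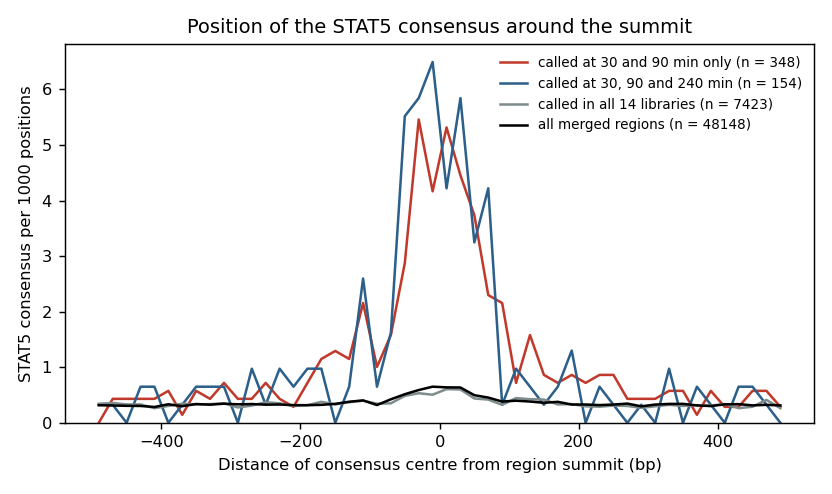
Matches to the STAT5 palindrome per 1000 base positions (y axis) by distance from the region summit in bp (x axis, bins of 20 bp), for 348 transient, 154 persistent, 7423 constantly called and 48148 merged regions. Matches in transient and persistent regions gather within about 100 bp of the summit, while the lines of the other classes stay low.

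Short sequences of other liver factors were found at shares nearer to those of all regions. TTGCNNAA, a short form of the site of C/EBP factors, was in 23% (18.7 to 27.8) of transient regions and 15.1% (14.8 to 15.5) of all regions, or 19.8% of the others at matched GC content. GTTAAT, part of the HNF1 site, was in 13.2% (9.84 to 17.2) and 8.77%, with 13.2% at matched GC content. AGGTCA, the hexamer bound by many nuclear receptors, was in 21.6% (17.3 to 26.2) of transient and 22.8% of all regions. TGTTTAC or TATTTAC, bound by FOXA factors, was in 12.9% (9.59 to 16.9) and 9.83%. TGANTCA, the AP-1 site, was in 10.6% (7.6 to 14.4) and 7.56%. ACANNNTGT, the core of glucocorticoid receptor sites, was in 6.32% (4 to 9.42) and 6.42%, and CCAAT, bound by NF-Y, in 28.7% (24 to 33.8) and 29.3%. At matched GC content the other regions gave 24.7% for AGGTCA, 13.5% for the FOXA sequences and 8.88% for AP-1. They gave 8.06% for ACANNNTGT and 30.4% for CCAAT. Each sequence was searched on both strands, and a match is not evidence of binding.

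Transient and persistent regions stood furthest apart, among these other sequences, in ATCAAT. This core of the site of HNF6, the factor encoded by Onecut1, was in 39 transient regions (11.2%, 8.09 to 15) and in 36 persistent regions (23.4%, 16.9 to 30.9). All merged regions gave 10.4% (10.1 to 10.7), and the regions other than the transient ones gave 15.4% at the GC content of the transient regions. The difference was singled out from the 12 sequences searched after their values were seen, and it was not tested.

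**Figure D2:**
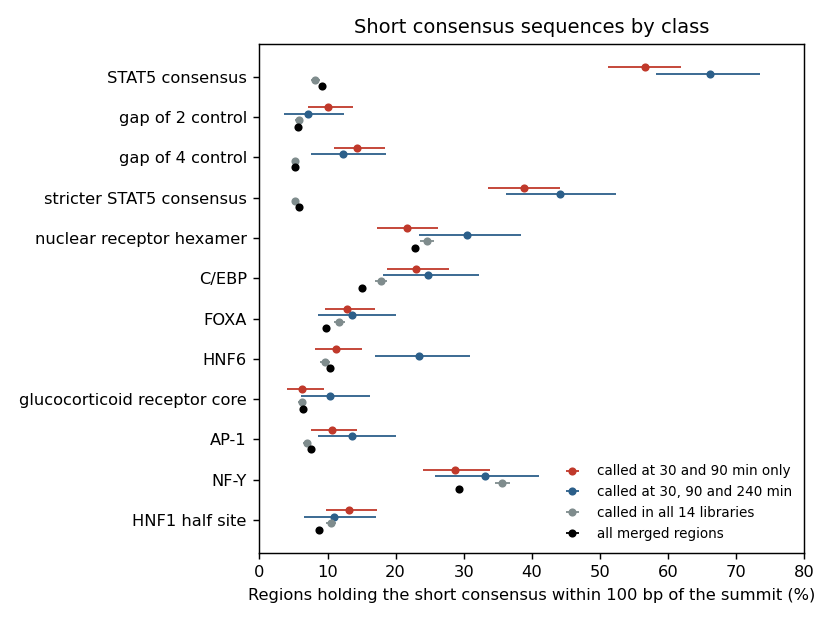
Share of regions (x axis, %) that hold each of 12 short consensus sequences (y axis) within 100 bp of the summit, by class. Points are shares and bars exact 95% binomial intervals; the STAT5 palindrome is in 56.6% of transient and 66.2% of persistent regions and in 9.16% of all merged regions, and HNF6 differs between the first 2.

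Most transient regions lay far from gene starts. Introns held 187 (53.7%) and intergenic sequence 115 (33%). Promoters, taken as summits within 1000 bp of an annotated start, held 34 (9.77%, 6.86 to 13.4) and other exons 12 (3.45%). Promoters were 3.9% (1.44 to 8.29) of persistent regions, 36.8% (35.7 to 37.9) of regions called in every library and 26.5% (26.1 to 26.9) of all. The median distance to the nearest annotated start of any gene type was 11.95 kb for transient and 7.954 kb for all regions. STAT5 palindromes were in 19 of the 34 promoter regions (55.9%, 37.9 to 72.8) and in 178 of the 314 distal ones (56.7%, 51 to 62.2). All 19 autosomes had transient regions, from 5 on chromosome 14 to 27 on chromosome 2, and X had 8.

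Some loci held several transient regions. Within 50 kb of another transient region lay 43 of them (12.4%, 9.09 to 16.3), in 21 groups, while 4.33% of the other regions lay within 50 kb of a transient one. The only group of 3 was at Vps13d on chromosome 4, over 70.9 kb. Pairs occurred at the thyroid hormone receptor gene Thrb (17.4 kb) and within Pvt1, the noncoding neighbour of Myc (2.46 kb). Another pair, over 1.33 kb, had Pim1, a kinase gene known as a STAT target, as its nearest protein-coding start. Its stronger region lay 20.2 kb upstream of that start, in the predicted gene Gm16912, and was not linked to Pim1 by the distance used below. Regions called in all 14 libraries lay within 10 kb of 25.9% (21.3 to 30.8) of transient regions and of 17.3% (17 to 17.7) of all regions outside that class.

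The fold of each peak over its local background, as the authors' peak caller gave it, describes how strong the regions were within each list. Averaged over the 4 libraries of 30 and 90 min it ran from 2.96 to 14.14, with a median of 5.989. These folds belong to the calls that chose the regions and are given as a description without a test. Within their own lists the transient peaks stood at median percentiles of 49.7 and 33.9 (30 min pools 1 and 2) and 43.5 and 35.8 (90 min pools 1 and 2). Persistent regions stood at 69.4, 53.6, 64.3 and 60.4 in the same order. Transient regions were thus of middling or lower rank among accessible regions, and below persistent ones in each of the 4 lists. Regions called in all 14 libraries stood higher still, at 72.7 to 75.8.

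**Figure D3:**
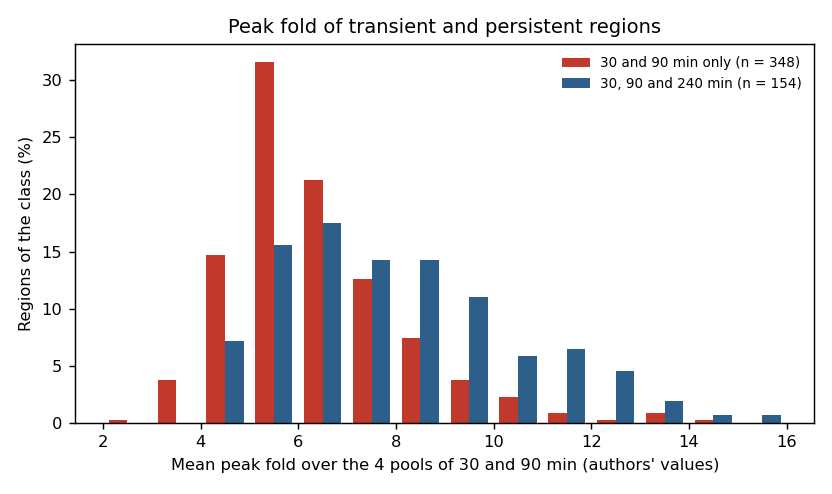
Share of each class (y axis, %) by mean peak fold over the 4 pools of 30 and 90 min (x axis, the authors' values, bins of 1), for 348 transient and 154 persistent regions. The medians were 5.989 and 7.574, and the classes overlap over most of the range.

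Because calls depend on a threshold, the regions at the border of the rule are given too. Another 395 regions had calls in 3 of the 4 libraries and in none of the 6, with a median mean fold of 5.2. Without 30 min pool 2 the rule gave 537 regions in place of 348. A further 303 had calls in all 4 and in exactly 1 of the 6, with a median of 6.47. Of these, 135 were called only in 240 min pool 1, 23 only in 240 min pool 2 and 111 only in hypox female pool 2. The 240 min pools were of near depth, 13813596 and 14658860 tags, but their lists held 28080 and 18882 peaks. In 240 min pool 1 those 135 regions had folds of 2.99 to 9.93, with a median of 4.84. The opposite pattern, a call in all 6 of the hypox and 240 min libraries and in none of the 4 of 30 and 90 min, was shown by 67 of the 48148 merged regions. It needs calls in 6 libraries, the shortest lists among them, in place of 4. The counts of 67 and 348 are therefore not on an equal footing.

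The authors also deposited lists called on the combined reads of each group, which the rule did not use although the reads are the same. Their 240 min list held 57 transient regions, or 16.4% (12.6 to 20.7), against 60.1% of all merged regions. This share depended on the limits set for single lists: it was 38.3% of 483 regions without 240 min pool 1, and 53.5% of 316 regions when single-library peaks needed a −log10 p of at least 10. In that list the 57 had folds of 2.632 to 4.944, with a median of 3.521. They included the regions at Slc22a23 (3.472), Ces3b (4.944), Deptor (3.409) and Il1r1 (3.955), and the one upstream of Pim1 (4.944). The combined untreated hypox male list held 31 transient regions (8.91%) and the combined hypox female list 18 (5.17%). In none of these 3 combined lists were 260 (74.7%, 69.8 to 79.2), whose share with the STAT5 palindrome was 58.5%. All 348 were in the combined lists of 30 and of 90 min. The 240 min calls below the threshold of single pools bear on the label of closed regions: for 57 of the 348, signal above background remained detectable when reads were combined.

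The strongest transient region lay in an intron of Slc22a23, a member of a family of organic ion transporters (chr13:34319777-34320481). Its folds were 13.9 and 11.9 in the 30 min pools and 14.7 and 16.08 in the 90 min pools, 14.14 ± 1.743 (SD, n = 4), at percentiles from 88.9 to 98.1 of its lists. It was called in intact female pool 1 alone of the 4 intact pools, at 3.723. The GH folds are those by which this region was ranked first, and folds from separate lists are not on a shared scale.

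A pair of regions lay upstream of Ces3b, a carboxylesterase gene of liver. The first, 15.5 kb upstream (chr8:107591994-107592362), had folds of 18.41, 11.83, 13.25 and 12.5 in 30 min pools 1 and 2 and 90 min pools 1 and 2. The second, 2.76 kb upstream (chr8:107604642-107605055), had folds of 9.028, 7.716, 9.688 and 9.295 in the same order and no STAT5 palindrome. Both were called in all 4 intact female pools, the first at 4.641 to 9.137 and the second at 4.516 to 6.771. Persistent and transient regions stood side by side here: a persistent region with the palindrome lay 36.5 kb from the first and 23.7 kb from the second summit, with folds of 5.65 and 7.09 in the 240 min pools.

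Deptor encodes an inhibitor of the kinase mTOR. Its intronic region (chr15:55029295-55030088) had folds of 13.42 and 10.77 at 30 min and 15.34 and 15.96 at 90 min. No single intact female pool called it, and the combined intact female list gave it a fold of 3.422. A persistent region without the palindrome lay 44.8 kb away, with folds of 7.95 and 7.26 at 240 min, and was called in all 4 intact female pools. By the definition of the classes, neither single 240 min pool called the transient region and both called its neighbour. In the combined 240 min list the transient region had a fold of 3.409.

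Other genes among the 20 regions of highest fold had varied roles. Trit1, which modifies transfer RNA, had an intronic region (chr4:122704002-122704571) at 12.26 ± 2.735 (SD, n = 4), called in no intact female pool. Gclc encodes the catalytic subunit of the enzyme that limits glutathione synthesis. The region 30.0 kb upstream of it (chr9:77572010-77572691) had folds of 14.12, 11.21, 12.09 and 9.651 and held 3 palindromes. An intron of Plaur, the urokinase receptor gene (chr7:25259811-25260571), was at 11.61 ± 2.31 and called in 3 intact pools. An intron of Rab7, a GTPase of late endosomes, was at 11.38 ± 1.289 (chr6:87977070-87977758). An intron of Il1r1, the interleukin-1 receptor gene, was at 10.99 ± 1.984 (chr1:40293582-40294170).

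The rest of the 20 included intronic regions of Thada, Fcgr2b, an inhibitory receptor for antibodies, and Cradd, a death-domain adaptor. Others were in introns of Pik3r1, Bmx, a cytoplasmic tyrosine kinase, and the predicted gene Gm16912, the last 20.2 kb upstream of Pim1. A promoter region lay upstream of the predicted gene Gm15375, 15.8 kb from the nearest protein-coding start, that of Usp40. The remaining regions lay between genes. The intergenic ones were nearest to Ino80d, a subunit gene of a chromatin remodeller, Irf2bp2, Sall1, Mepe and Poc1b. The mean folds of these regions ran from 9.62 upstream of Pim1 to 13.96 near Ino80d. Of the 20, 15 held the STAT5 palindrome, 12 were intronic and 1 was at a promoter. Intact females called 11 of them in at least 1 pool and 2 in all 4, and the combined 240 min list held 8. The 5 without the palindrome within 100 bp of the summit were those named by Ino80d, Thada, Sall1 and Bmx and the one upstream of Pim1.

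**Figure D4:**
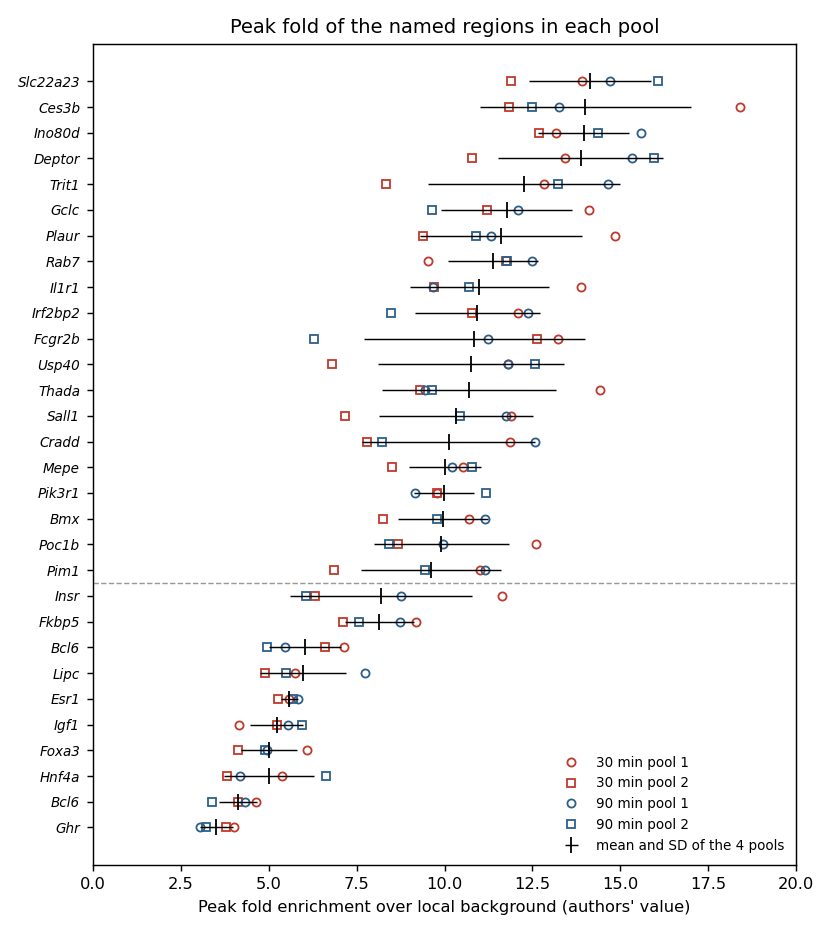
Peak fold over local background as the authors' caller gave it (x axis) in each pool of 30 and 90 min, for the 20 transient regions of highest mean fold (above the dashed line) and the further regions linked to a gene of the lists (below it), labelled by gene. Black bars are the mean and SD of 4 pools; the means run from 14.14 at Slc22a23 to 3.518 at Ghr.

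Genes of GH signalling and its targets were looked up in 19 gene lists, linking a region to a gene in whose body or within 10 kb upstream it lay. Of all 17111 genes with a linked region, 289 (1.69%) had a transient one. The lists together had 12 transient regions, of which 8 held the palindrome and 5 were called in an intact female pool. Counts of so few regions are descriptions, and no list was tested.

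Among 14 genes of GH receptor signalling and feedback, 1 had a transient region, Ghr itself. It encodes the GH receptor, and the region lay 1.05 kb upstream of a start (chr15:3534203-3534733). Its folds of 4.025, 3.776, 3.049 and 3.221 put it among the 3 weakest transient regions, at percentiles from 0.641 to 5.65 of its lists. It held no palindrome and was called in 2 intact female pools.

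Among 10 direct GH and STAT5 targets, Igf1 and Bcl6 had transient regions. Igf1 encodes the hormone through which much of GH action on growth runs. Its intronic region (chr10:87334788-87335360) had folds of 4.167 and 5.242 at 30 min and 5.556 and 5.939 at 90 min, without a palindrome. Bcl6 encodes a repressor that binds sites like those of STAT5. The region in its intron (chr16:23981112-23981743), with 3 palindromes, had folds of 7.152 and 6.6 at 30 min and 5.456 and 4.945 at 90 min. No intact female pool and none of the combined lists of hypox mice, 240 min or intact females held it. The region 7.75 kb upstream (chr16:23996425-23996880) had folds of 4.651, 4.128, 4.327 and 3.403, held 1 palindrome and was called in 3 intact female pools. A region 91.9 kb upstream, beyond the distance used for linking, had a higher mean fold of 8.336 and 2 palindromes, and was named after its values were seen.

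Among 19 genes of IGF, insulin and mTOR signalling with a region, Igf1, Insr, Pik3r1 and Deptor had transient ones. The intron of Insr, the insulin receptor gene (chr8:3270048-3270639), had folds of 11.63, 6.329, 8.75 and 6.071, with pool 1 above pool 2 at both times. Medians over all transient regions ran the same way, 6.687 and 5.395 at 30 min and 5.984 and 5.677 at 90 min. Pik3r1 encodes the regulatory subunit of phosphoinositide 3-kinase, and its intronic region (chr13:102515915-102516469) had folds of 9.792, 9.796, 9.174 and 11.18. A persistent region with the palindrome lay 27.3 kb from it, with folds of 5.66 and 7.01 at 240 min. Pik3r1 and Deptor were the genes of this list that held regions of both kinds.

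Liver transcription factors were represented by Hnf4a and Foxa3, 2 of 18. The intron of Hnf4a, a master regulator of hepatocytes (chr2:163384373-163385160), had folds of 5.372, 3.815, 4.181 and 6.639 and 1 palindrome. The intron of Foxa3 (chr7:19603238-19603718) had folds of 6.081, 4.121, 4.952 and 4.894 and 1 palindrome, and lies close to Sympk. Persistent regions in this list were at Onecut2 and Nr5a2. Among 8 regulators of sex bias that follow the GH pattern, Bcl6 and Esr1 had transient regions. The intron of Esr1, which encodes estrogen receptor alpha, had folds of 5.571, 5.255, 5.844 and 5.688, the narrowest spread of the regions linked to a list gene.

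Further single genes were Fkbp5, a chaperone partner of steroid receptors, and Lipc, the hepatic lipase gene. The Fkbp5 intron (chr17:28596449-28597173) was at 8.15 ± 0.9723 (SD, n = 4) and was called in 3 intact female pools. The Lipc intron (chr9:70768960-70769434) was at 5.973 ± 1.229 and was called in none. No transient region was linked to any of the 16 immediate-early, 12 circadian, 13 glucose or 10 ubiquitous genes that had a region. The same held for the 10 male-biased, 17 female-biased and 13 shared hepatocyte genes with a region. Of other liver cell types, 7 endothelial, 5 stellate, 2 Kupffer, 3 lymphocyte and 2 cholangiocyte marker genes had a region, and none had a transient one. Of the regions outside these lists, those at Fcgr2b and Sall1 lie at genes also expressed in liver cells other than hepatocytes, and whose cells carried them was not tested.

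The weakest regions by fold did not have the lowest fragment pileups. The region 70.4 kb upstream of Onecut1, the gene of HNF6 (chr9:74639152-74639516), had folds of 3.359, 3.265, 2.561 and 2.656, the lowest mean of all, 2.96. Its pileups, the overlapping fragments at the summit, were 59, 34, 56 and 45, above the medians of 28, 20.5, 28 and 22 over transient regions. A persistent region lay 9.69 kb away, at 5.97 and 5.04 in the 240 min pools. The Zfp809 intron (chr9:22033944-22034441) had a mean fold of 3.257 with pileups of 44, 40, 48 and 33.

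The 4 intact female pools took no part in the rule and showed which transient regions were accessible in animals with their own GH secretion. Of the 348, 141 were called in at least 1 intact pool, a share of 40.5% (35.3 to 45.9), against 82.1% of all merged regions. All 4 pools called 16 of them, or 4.6% (2.65 to 7.36), against 28.6% of all regions. The number called was 72 in pool 1, 32 in pool 2, 81 in pool 3 and 94 in pool 4. Shares by pool were 20.7, 9.2, 23.3 and 27%, and for persistent regions 73.4, 45.5, 74 and 75.3%. In each of the 4 pools the transient share was lower than the persistent share, and the ranges of these 2 classes did not overlap. All merged regions were called at 57.1, 47.2, 43.6 and 72.1% in pools 1 to 4. These shares were above the transient share in each pool, and above the persistent share in pool 2 only. On combined reads, the intact female list held 186 transient regions (53.4%, 48.1 to 58.8). It held 87% of persistent and 85.3% of all merged regions.

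The difference, transient minus persistent, was −52.7, −36.3, −50.8 and −48.3 percentage points in pools 1 to 4, with a mean of −47 (SD 7.38, n = 4). An exact two-sided sign-flip permutation test gave p = 0.13, the smallest that 4 pools allow, so the design could not reach 0.05. The persistent regions also had higher peak folds. Among regions whose mean fold lay between the quartiles of the transient regions, 5.167 and 7.211, 72 of 174 transient (41.4%, 34 to 49.1) and 41 of 50 persistent regions (82%, 68.6 to 91.4) were called in at least 1 intact pool. The transient share in at least 1 pool was 38.8, 39.7 and 43.1% in 3 groups of 116 of rising mean fold. These mean folds belong to calls that the rule itself required. Persistent regions also needed a call in both libraries of the latest GH time, so the classes still differed in how they were chosen. Whether peak strength accounts for the lower transient share was not tested. All intact pools were of females and all GH pools of hypox males. The effects of sex, of the source of GH and of other pituitary hormones thus cannot be told apart here.

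**Figure D5:**
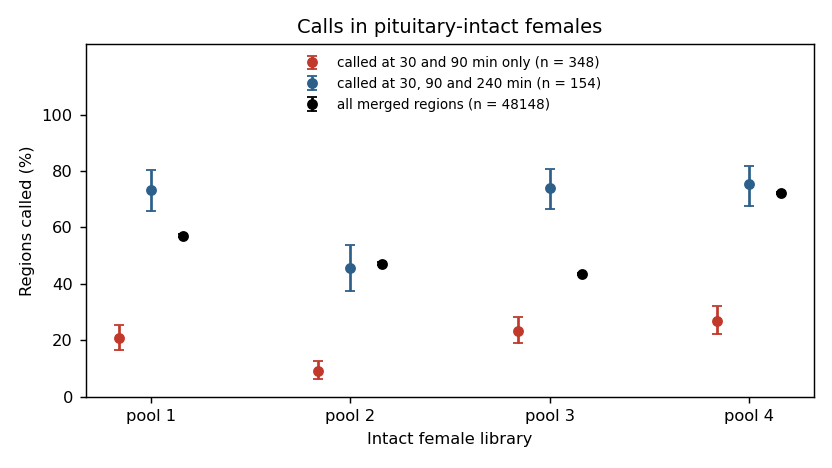
Share of regions called (y axis, %) in each of the 4 intact female libraries (x axis), for 348 transient, 154 persistent and all 48148 merged regions, with exact 95% binomial intervals as bars. Transient regions were called less often than persistent ones in each pool, from 9.2% in pool 2 to 27% in pool 4.

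The share with a palindrome had overlapping intervals in transient regions with and without an intact call. Palindromes were in 75 of 141 regions called in an intact pool (53.2%, 44.6 to 61.6) and in 122 of 207 called in none (58.9%, 51.9 to 65.7). In the 16 regions called in all 4 intact pools, 6 held one (37.5%, 15.2 to 64.6). Regions that females called were more often in the combined 240 min list, 33 of 141 (23.4%, 16.7 to 31.3) against 24 of 207 (11.6%, 7.57 to 16.8). These intervals overlap narrowly and cover counting error over regions only. The difference was not tested. Intact calls came from peaks of low rank, at median percentiles of 21.5 to 28.9 of the intact lists.

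The 16 regions called in every intact pool were led by the first Ces3b region, the one near Poc1b, the second Ces3b region, the promoter shared by Itsn1 and Atp5o, and a region 48.9 kb upstream of Egfr. Atp5o encodes a subunit of ATP synthase and Egfr the epidermal growth factor receptor. The Poc1b region (chr10:98689223-98689793) had folds of 12.61, 8.667, 9.958 and 8.411 after GH and 4, 3.687, 5.882 and 6.22 in intact pools 1 to 4. The Egfr region (chr11:16603018-16603602) had folds of 9.453, 5.909, 8.199 and 6.81 after GH and 4.354, 3.837, 4.649 and 3.755 in intact females. The Itsn1 promoter region (chr16:91784528-91785054) had 10.31, 7.436, 8.913 and 5.587 after GH and 3.472 to 4.945 in intact females. Others of the 16 lay in introns of Gsta3, a glutathione transferase gene, and Hao1, the gene of glycolate oxidase, both with a palindrome.

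A persistent region lay within 50 kb of 18 transient regions (5.17%, 3.09 to 8.05), while 2% (1.87 to 2.13) of all merged regions other than persistent ones had one. Besides Deptor, Pik3r1 and Ces3b, such pairs were found at Cradd, where the summits lay 10.4 kb apart, and at Hs3st3b1, where 2 transient regions lay 2.76 and 4.47 kb from a persistent one. The closest pair, 0.905 kb apart, lay 301 kb from the start of Inhba. There the transient region had a mean fold of 4.114 and the persistent one 14.1, with 7.55 and 8.74 at 240 min.

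Across the series the libraries held 13078268 to 33700120 tags and 17691 to 35851 peaks, and the 4 libraries of 30 and 90 min held 14947292 to 17174839 tags. Hypox female pool 1 had the shortest list, so its lack of a call carries the least weight. Leaving out the untreated hypox males, which carry another code than the GH pools, gave 403 transient regions, 53.6% of them with the palindrome. The counts of this study rest on 2 pools per GH time and on calls made one library at a time.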

How the data were processed

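DNase-seq was measured in 14 pooled liver libraries. Per the submitters' processing notes, Bowtie2 and the mm9 genome were used; per the file headers, the authors called peaks with MACS2 2.1.0.20150731 on each library and on the combined reads of each group, without a control, at q 0.05, keeping duplicates, shifting tags by −100 bp and extending them to 200 bp. The deposited lists give each peak's pileup (a signal of overlapping fragments), its fold over local background (a ratio) and its −log10 p, as the authors' caller wrote them. Peak numbers in the lists exceed their lines, so some peaks were removed by a filter not given in the sources used here.

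Peaks on chromosomes 1 to 19 and X of the 14 library lists were merged at 1 bp of overlap (Python 3.11.15, pandas 2.3.3, NumPy 2.4.6), and a region was called in a library with an overlapping peak. Sequence was read with pysam 0.24.0 from the mm9 (NCBIM37) genome, 100 bp either side of the summit, and genes came from GENCODE annotation of that build. A region's fold is that of its strongest peak. Shares carry exact Clopper-Pearson 95% intervals (SciPy 1.17.1). The functions were tested on simulated peaks and planted sites. Because duplicates were kept and a pool is 1 library, intervals cover counting error only.

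Transient regions, gene lists and searched sequences were chosen with earlier results of these data known. Named were the 20 regions of highest mean fold, those linked to a gene of the lists, the 5 of highest fold called in all 4 intact pools, and the 3 of lowest fold. Other regions named were chosen after their values were seen. Alternatives included stricter peaks, lists of equal length, other merging and leaving out each library.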

Additional observations from a re-analysis of the deposited data

Results flagged for a closer look

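One value stood apart from its group. Intact female pool 2 called 45.5% of the persistent regions, while the other intact pools called 73.4 to 75.3%, a gap of 0.936 of the whole range, past Dixon's 95% critical value for 4 samples. It was 1 of 8 measures looked at in these 4 pools, and chance alone passes this limit in about 1 in 20 groups. The same pool called the lowest share of transient regions, 9.2%, with a gap of 0.646, which is not past the limit. Its depth of 16842432 tags was near that of pool 1 (16712296), and its list was shorter, 23931 against 28644 peaks. Without it, the mean difference between transient and persistent shares was −50.6 points in place of −47.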

How the results depend on the processing

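The number of transient regions stayed between 260 and 403 with peaks of −log10 p of at least 10 (316), lists of equal length (402), peaks covering at least 50% of the region (390), merging of the 10 lists of the rule alone (351), absence from the combined lists (260) and the untreated hypox males left out (403). Leaving out single libraries gave 350 to 537. The highest value came without 30 min pool 2 and was the only one past 1.5 times the count; fewer lists to satisfy can only add regions.

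The share with the STAT5 palindrome was 39.4% in a window of 100 bp, 75% in whole regions and 38.8% with stricter letters; other alternatives gave values within its interval. Promoters held 4.6% at 500 bp and 19.8% at 2500 bp.

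The share called in an intact female pool was 35.1% with lists of equal length, 34.2% for regions absent from the combined lists, 4.6% when all 4 pools were required, and 33 to 52.2% without single libraries. It was 52.2% without 240 min pool 1. Persistent regions, the comparison class, numbered 277 without the untreated hypox males, 338 without hypox female pool 2, 289 without 240 min pool 2 and 154 as reported. The mean difference from persistent regions was −32.1 points without 240 min pool 1, and negative under every alternative run (−32.1 to −51.3). Its p was 0.25 without any 1 intact pool, the smallest that 3 allow.

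The share in the combined 240 min list was 53.5% with the stricter peaks, 49.3% with lists of equal length and 42.1% with peaks covering at least 50% of the region. These limits were set on single-library lists while the combined list was kept whole. It was 14.9 to 38.3% without single libraries. Without 240 min pool 1 it was 38.3%, and without pool 2 it was 21.3%.

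No paired analysis was possible because the labels tie pool numbers to no shared animals or batches and the results are counts of calls; the test on intact pools pairs classes within a library. Depth and threshold limit every absence of a call; the shortest lists were those of hypox female pool 1 (17691 peaks) and 240 min pool 2 (18882), the second at more tags than 240 min pool 1.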

Other observations

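Values outside the comparisons concern regions of other loci, named after their values were seen. Promoters of Met, the receptor gene of hepatocyte growth factor, and Nup88, a nucleoporin gene, held transient regions of mean fold 9.133 and 9.192 with 1 palindrome each. The Met region was called in 1 intact female pool and the Nup88 region in none. Within Pvt1, 1 of the 2 transient regions (chr15:61993608-61994383) was called in all 4 intact female pools, with folds of 4.419 to 6.777, and the other (chr15:61995543-61996067) in 1. Both held a palindrome. Within Thrb, the 2 regions had mean folds of 6.697 and 5.21, and only the second held a palindrome.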
